A study of Mus musculus with 48 samples.

Results

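The genes described here are Rasl11a, S1pr2, Gfpt2, Chst2, F3, Vgf, Sez6l2, Adm, Prss23 and Stra6, which are measured by 12 of the 55681 probes on the arrays. They were chosen by their array signal, for a rise after IL1B in O4+ cells at P5 together with levels in CD11B+ cells too low to give that rise. The choice used the response of O4+ cells at P5 and the level in CD11B+ cells, with no age named for the latter, so these values are given below as a description and without a test. The responses to IL1B at P10 were not part of the choice. The level in CD11B+ cells may have drawn on P10 arrays, so tests that use those arrays are not wholly independent of the choice. Every probe named for 1 of the 10 genes was taken. Chst2 and F3 have 2 probes each, and the brighter probe, by the mean over all 48 arrays, stands for the gene unless the other is named.

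The study followed a mouse model of perinatal white matter injury, in which male Swiss pups (OF1 in the study's methods) received intraperitoneal injections of PBS or of IL1B at 10 ng/g from P1 to P5. Brains were taken at P5, 2 h after the last injection per the labels (the study's methods give a longer interval), or at P10. A description field of the P10 samples names injections up to P10, whereas their treatment text ends them at P5, which is followed here. O4+ cells and then CD11B+ microglia were sorted with magnetic beads from the same dissociated, pooled brains. Each of the 8 groups (O4+ or CD11B+, P5 or P10, PBS or IL1B) comprises 6 samples and 6 arrays. PBS-injected pups of the same age are the only controls, and every animal of both arms was injected, so that the P10 pups were studied after the injections had ended. Levels are log2 of the background-subtracted signal after quantile normalization, and a difference of 1 on this scale is a 2-fold change. A level compares the same probe across arrays and does not rank 1 gene against another.

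O4 is a surface antigen of late oligodendrocyte progenitors and immature oligodendrocytes, the cells that go on to make myelin, and CD11B is an integrin subunit of microglia and other myeloid cells. IL1B is a cytokine that acts through a receptor of the Toll/interleukin family and activates NF-kB and AP-1 transcription factors. The 10 genes do not form a pathway. F3, S1pr2, Stra6 and Sez6l2 encode proteins of the cell membrane, Adm and Vgf encode precursors of secreted peptides, Gfpt2, Chst2 and Prss23 encode enzymes, and Rasl11a encodes a small GTPase of the Ras-like family.

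The description as dim in CD11B+ cells held for some of the genes and not for others. In PBS pups at P5, the mean log2 level in O4+ cells exceeded that in CD11B+ cells by 3.49 for Gfpt2, 3.39 for Rasl11a, 3.04 for Chst2, 2.84 for Prss23, 2.61 for F3 and 2.32 for Sez6l2. The excess was smaller for Stra6 at 1.16, Vgf at 0.69 and Adm at 0.29. S1pr2 had the same level in both cell types, 9.20 ± 0.08 in O4+ cells and 9.20 ± 0.25 in CD11B+ cells (SD, n = 6 each). The brighter probes of 9 genes were well above background on all 24 CD11B+ arrays, and that of Rasl11a was on 23. The set is therefore called here the 10 selected genes. After IL1B at P5, the 6 O4+ arrays lay above the 6 CD11B+ arrays for each of the 10 genes, by 0.95 (S1pr2) to 4.63 (Rasl11a), as 20.1% of all probes did. The choice used the P5 rise in O4+ cells and the CD11B+ level, so it partly fixes this count.

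**Figure D1:**
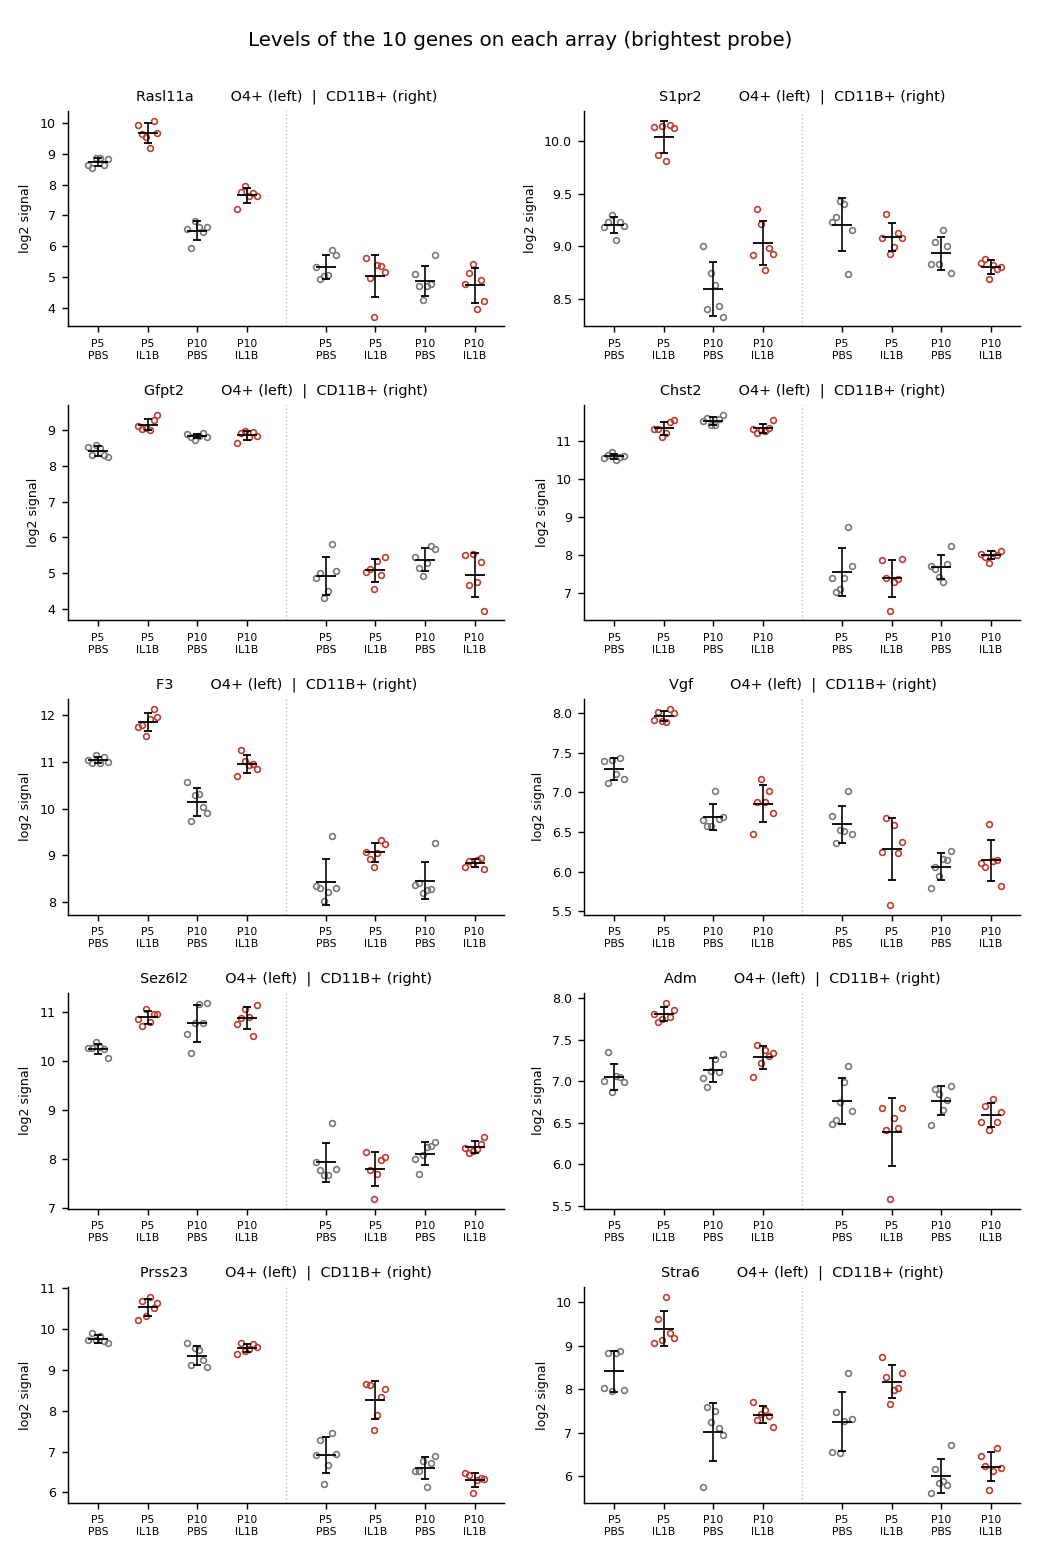
Log2 signal (y axis) of the brighter probe of each of the 10 genes on every array, with O4+ groups on the left and CD11B+ groups on the right of each panel. Grey circles are PBS and red circles IL1B arrays, in replicate order, with the mean and SD of 6 arrays. S1pr2 has the same level in both cell types at P5 after PBS (9.20 in each), and Gfpt2 is far higher in O4+ cells (8.42 against 4.93).

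Promoter sequences of 8 of the 10 genes were found in the RefSeq table of the GRCm38.p6 build, as 300 bases from 250 before to 50 after the gene's start. They were searched on both strands for 4 short patterns of factors that act downstream of cytokines or low oxygen. The AP-1 pattern TGANTCA was found in 2 of the 8 promoters, F3 and Gfpt2, and in 7.93% of 27025 promoters of the table. The F3 promoter holds 2 AP-1 matches, as do 0.44% of all promoters. The STAT pattern TTCNNNGAA was found in Rasl11a alone among the 8 and in 8.47% of all promoters. The NF-kB pattern, GGG and CC with any 5 letters between, found in 5 of the 8 promoters and in 50.4% of all, and the hypoxia pattern ACGTG, found in 1 of the 8 (Gfpt2) and in 19.7% of all, are not marked. A match describes letters only. The promoters of Rasl11a and F3 are shown because these genes rose with IL1B at both ages, and those of Gfpt2 and Chst2 because at P10 the difference of Gfpt2 was near 0 and that of Chst2 had the opposite sign. Capitals mark AP-1 and STAT matches, which do not overlap each other.
Rasl11a, chr5:146844821-146845120, plus strand: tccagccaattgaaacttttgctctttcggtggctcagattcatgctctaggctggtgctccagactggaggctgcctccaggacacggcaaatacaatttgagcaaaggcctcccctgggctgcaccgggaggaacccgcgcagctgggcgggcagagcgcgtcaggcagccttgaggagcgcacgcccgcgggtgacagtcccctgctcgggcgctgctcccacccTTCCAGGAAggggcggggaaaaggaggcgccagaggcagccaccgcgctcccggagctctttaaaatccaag
F3, chr3:121723287-121723586, plus strand: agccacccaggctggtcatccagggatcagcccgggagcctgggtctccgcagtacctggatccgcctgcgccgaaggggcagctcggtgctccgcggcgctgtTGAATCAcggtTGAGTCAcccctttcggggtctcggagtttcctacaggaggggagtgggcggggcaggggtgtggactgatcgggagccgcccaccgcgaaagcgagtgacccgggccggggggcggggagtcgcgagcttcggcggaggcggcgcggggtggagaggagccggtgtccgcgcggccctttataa
Gfpt2, chr11:49793905-49794204, plus strand: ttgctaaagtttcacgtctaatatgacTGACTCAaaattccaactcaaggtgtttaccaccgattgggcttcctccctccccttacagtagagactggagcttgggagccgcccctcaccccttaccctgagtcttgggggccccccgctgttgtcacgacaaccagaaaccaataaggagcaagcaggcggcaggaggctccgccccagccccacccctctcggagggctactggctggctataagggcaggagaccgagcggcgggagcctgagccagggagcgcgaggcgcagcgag
Chst2, chr9:95407221-95407520, minus strand: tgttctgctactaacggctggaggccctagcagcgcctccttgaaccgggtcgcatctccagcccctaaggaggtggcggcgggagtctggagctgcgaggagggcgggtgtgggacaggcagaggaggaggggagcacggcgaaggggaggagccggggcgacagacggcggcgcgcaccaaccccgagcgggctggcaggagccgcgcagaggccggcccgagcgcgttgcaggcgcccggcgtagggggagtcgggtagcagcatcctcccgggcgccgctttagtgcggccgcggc

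On the arrays, 52.9% to 65.4% of probes were well above background, no spot was saturated, and arrays of the same group correlated at 0.958 or more. No slide or scan date held arrays of both ages, so a difference between ages cannot be told apart from a difference between slides. The mean log2 level of 15 microglial markers was 13.32 to 13.90 on the O4+ arrays of PBS pups at P5 and 14.49 to 14.90 after IL1B. At P10 it was 12.51 to 13.18 after PBS and 12.88 to 13.52 after IL1B, against 15.83 to 16.50 on the CD11B+ arrays. At P5, 10 of the 15 microglial markers and 7 of 8 measured neutrophil and monocyte markers were called higher with IL1B in O4+ cells, and 8 of 12 endothelial markers were called lower. Also called lower there were 2 of 8 markers of oligodendrocyte progenitors and 1 of 8 of myelinating oligodendrocytes. At P10, 7 of 15 microglial, 6 of 8 neutrophil and monocyte, 3 of 6 meningeal fibroblast and 3 of 8 astrocyte markers were called higher in O4+ cells, as were 2 of 8 of oligodendrocyte progenitors and 1 of 11 of neurons, and 3 of 8 of myelinating oligodendrocytes were called lower. The P10 mean of the neutrophil and monocyte list was 3.14 to 4.52 after PBS and 4.94 to 6.19 after IL1B, and that of the fibroblast list 8.14 to 9.02 and 8.85 to 9.80. The oligodendrocyte progenitor list was at 14.93 to 15.12 after PBS and 15.09 to 15.48 after IL1B. In such sorted bulk samples, fewer cells of a type and less RNA per cell cannot be told apart. The part of these shifts in the responses of the 10 genes was not tested, but their levels in CD11B+ cells are given beside each gene.

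**Figure D2:**
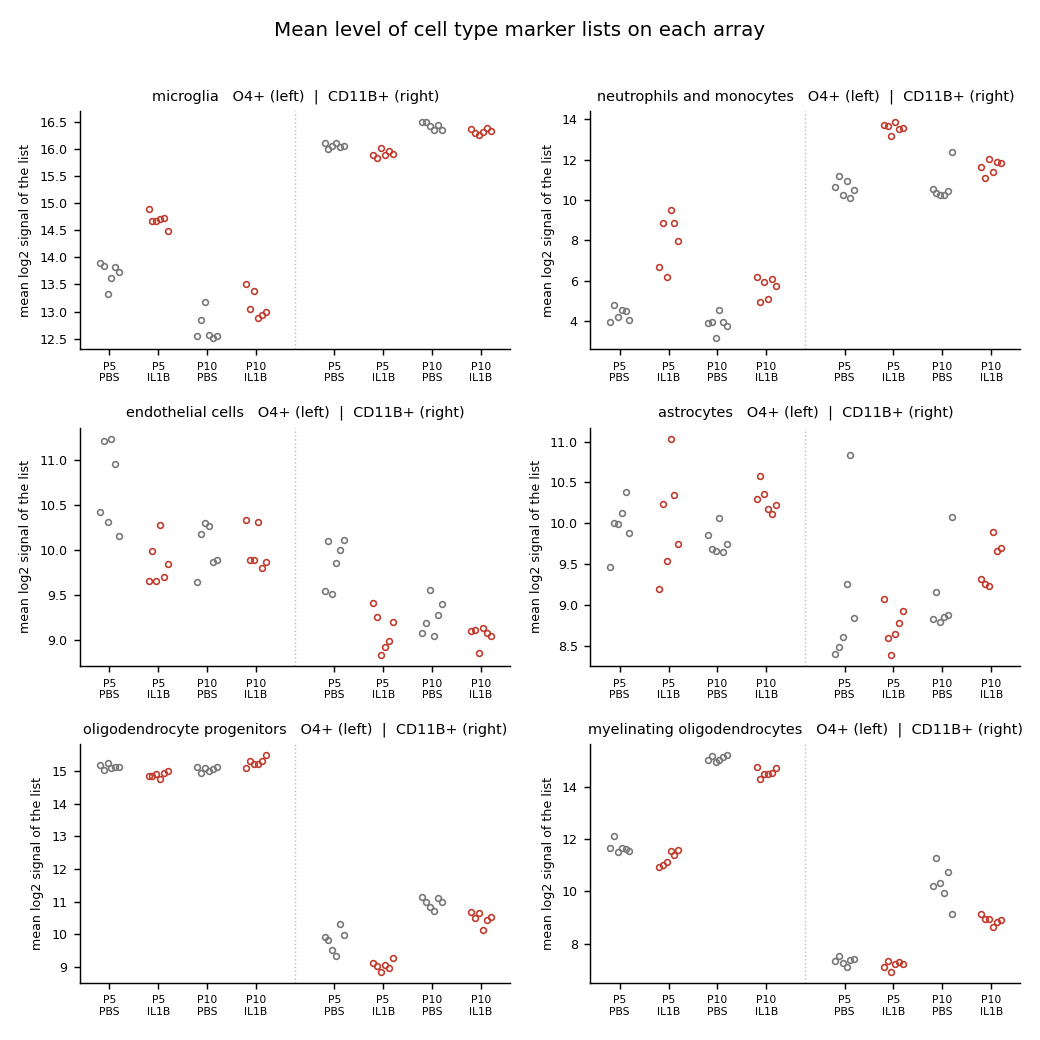
Mean log2 signal (y axis) of 6 marker lists on every array, with O4+ groups on the left and CD11B+ groups on the right. Grey circles are PBS and red circles IL1B arrays, in replicate order. In O4+ cells at P5 the microglial list rises from at most 13.90 after PBS to at least 14.49 after IL1B, and all CD11B+ arrays stand at 15.83 or higher.

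In O4+ cells at P5, the comparison by which the genes were chosen, the log2 difference between IL1B and PBS was 0.64 (Sez6l2) to 0.98 (Stra6), with a median of 0.77 against -0.04 over all probes. The ratios of group medians ran from 1.56 for Vgf and 1.57 for Sez6l2 to 1.89 for S1pr2 and 1.91 for Rasl11a. For each of the 10 genes every IL1B array lay above every PBS array, as held for 4.64% of all probes, and the selection fixes this count. The changes were thus moderate and of similar size, below 2-fold for each gene. Whether they were still present at P10 was not part of the choice and was tested.

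At P10, 5 days after the last injection, 2 of the 10 genes were called higher with IL1B in O4+ cells, Rasl11a and F3, against 2.61% of all probes. A call required an adjusted p under 0.05 from limma, after Benjamini-Hochberg adjustment over all 55681 probes, and a ratio of group medians over 1.5. None was called lower by its brighter probe, against 1.51% of all probes called lower, whereas the dimmer Chst2 probe was. For Rasl11a and F3 all IL1B arrays lay above all PBS arrays, as for 2.90% of all probes. The median log2 difference of the 10 genes was 0.17 (all probes -0.02), and 9 of 10 were above 0. For 8 of the 10 the difference between IL1B and PBS was smaller at P10 than at P5, and for Rasl11a (by 0.20) and F3 (by less than 0.01) it was not. Since the genes were chosen for their P5 difference, and the ages share no slide, this decline is a description and was not tested.

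**Figure D3:**
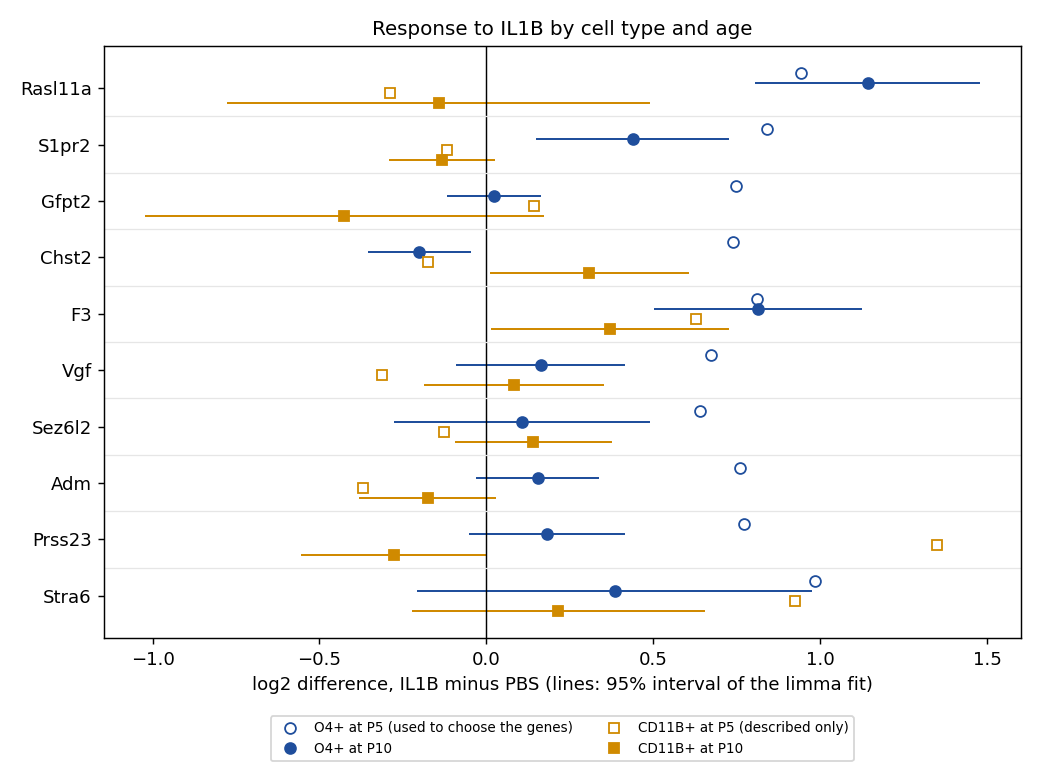
Log2 difference between IL1B and PBS (x axis) for each gene. Open symbols are P5 values without an error, filled symbols P10 values with the 95% interval of the limma fit, circles O4+ and squares CD11B+ cells, 6 against 6 arrays each. At P10 the O4+ intervals of Rasl11a (0.81 to 1.48) and F3 (0.51 to 1.12) lie far above 0. That of S1pr2 (0.15 to 0.72) lies above 0 and that of Chst2 (-0.35 to -0.05) below it, and neither was called by the probe shown. The intervals are not adjusted for the number of probes.

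F3, or tissue factor, is the membrane receptor for coagulation factor VII that starts clotting. In O4+ cells its level was 10.97 to 11.15 (median 11.03) after PBS at P5 and 11.55 to 12.14 (median 11.86) after IL1B. The P10 range was 9.73 to 10.56 (median 10.17) after PBS and 10.71 to 11.26 (median 10.95) after IL1B. The groups did not overlap at either age, and F3 was higher in IL1B cells on 6 of 6 arrays at P10. The P10 difference was 0.81 ± 0.14 (SE, limma adjusted p = 0.00557), and its dimmer probe gave 0.71 ± 0.13 (adjusted p = 0.00795). On the slide with 5 PBS and 2 IL1B arrays it was 0.79, and on the slide with 1 of each it was 0.95. The mean of 8 astrocyte markers, at 9.65 to 10.06 after PBS and 10.12 to 10.58 after IL1B, also stood higher on the P10 IL1B arrays, as did the microglial, neutrophil and monocyte, and meningeal fibroblast lists given above. The oligodendrocyte progenitor list also had a higher mean there after IL1B (15.27 against 15.05 after PBS). The myelinating list had a lower mean (14.56 against 15.10). The part of these lists in the F3 value was not tested.

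In CD11B+ cells F3 was 8.03 to 9.41 (median 8.30) after PBS and 8.75 to 9.32 (median 9.06) after IL1B at P5. P10 levels were 8.19 to 9.26 (median 8.31) after PBS and 8.71 to 8.93 (median 8.84) after IL1B. In each PBS group a single array stood apart, replicate 5 at P5 (9.41) and replicate 6 at P10 (9.26), and all other PBS arrays lay below all IL1B arrays of their age. The P10 difference was 0.37 ± 0.16 (adjusted p = 0.198) and was not called. Without PBS replicate 6 it was 0.53 with an adjusted p of 0.000737, still under the ratio of 1.5. The same 2 arrays had the highest list means of their groups for astrocytes (10.84 and 10.08 against 8.39 to 9.26 on the other PBS arrays), meningeal fibroblasts (10.73 and 9.15), choroid plexus (10.00 and 8.97) and mural cells (9.25 and 8.13). Replicate 5 at P5 was also highest for neurons (7.60) and oligodendrocyte progenitors (10.31). Replicate 6 at P10 was also highest for neutrophils and monocytes (12.37 against 10.23 to 10.56). The dimmer F3 probe gave a P10 difference of 0.70 ± 0.30 in CD11B+ cells (limma adjusted p = 0.189) and was not called. It was well above background there on 3 of 6 PBS and 5 of 6 IL1B arrays. The brighter F3 probe lies at chr3:121437717-121437776 (mm9, plus strand).

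S1pr2 is a receptor for sphingosine-1-phosphate. In O4+ cells its level was 9.06 to 9.29 (median 9.21) after PBS and 9.81 to 10.15 (median 10.13) after IL1B at P5. By P10 the level was 8.33 to 9.003 (median 8.53) after PBS and 8.77 to 9.35 (median 8.96) after IL1B, so that the groups overlapped. The P10 difference of 0.44 ± 0.13 missed the threshold (adjusted p = 0.0533), with a 95% interval of 0.15 to 0.72. CD11B+ levels were 8.73 to 9.43 (median 9.25) after PBS and 8.93 to 9.31 (median 9.08) after IL1B at P5. At P10 they were 8.74 to 9.16 (median 8.92) and 8.68 to 8.87 (median 8.81), a difference of -0.13 ± 0.07 (adjusted p = 0.302). S1pr2 in P10 PBS pups was thus at its lowest mean of all 8 groups in O4+ cells (8.59), 0.34 below CD11B+ cells of the same age.

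Stra6 is the membrane receptor through which cells take up retinol from its binding protein. In O4+ cells it ranged from 7.95 to 8.88 (median 8.43) after PBS and from 9.06 to 10.12 (median 9.23) after IL1B at P5. At P10 the range was 5.75 to 7.59 (median 7.17) after PBS and 7.13 to 7.70 (median 7.40) after IL1B. Stra6 was the most scattered of the 10 genes in PBS cells, with an SD of 0.47 at P5 and 0.67 at P10. The P10 difference of 0.38 ± 0.27 was not called (adjusted p = 0.442), and without PBS replicate 1, the array at 5.75, it was 0.13. In PBS cells at P5, replicates 2, 4 and 5 had Stra6 levels of 8.83 to 8.88, and the other 3 arrays 7.95 to 8.02. The same split was seen in the list means of endothelial cells (10.95 to 11.24 against 10.15 to 10.42), choroid plexus (9.98 to 10.01 against 9.07 to 9.29) and meningeal fibroblasts (10.22 to 10.58 against 9.31 to 9.59). It was also seen for mural cells (8.96 to 9.28 against 8.12 to 8.44) and for neutrophils and monocytes (4.48 to 4.77 against 3.96 to 4.20). After IL1B at P5 the endothelial list was lower (9.65 to 10.27) and Stra6 higher. The choroid plexus and fibroblast lists were highest where Stra6 was, in IL1B replicates 4, 2 and 5, with Stra6 at 10.12, 9.62 and 9.29, choroid plexus means of 10.71, 10.24 and 9.89, and fibroblast means of 11.16, 9.84 and 10.00. The mural, astrocyte, neuron, and neutrophil and monocyte lists were highest in the same replicates. The part of these cell types in the Stra6 values was not tested.

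In CD11B+ cells Stra6 was 6.54 to 8.37 (median 7.29) after PBS and 7.67 to 8.74 (median 8.15) after IL1B at P5, a difference of 0.93 close to that of O4+ cells (0.98). In P10 pups it was 5.62 to 6.71 (median 5.86) and 5.68 to 6.64 (median 6.21), a difference of 0.22 ± 0.20 (adjusted p = 0.582). The P5 rise of Stra6 was thus present in both cell types, with overlapping groups in CD11B+ cells through PBS replicate 5 (8.37), the array with the highest choroid plexus mean of its group (10.00). That array also had the highest astrocyte, fibroblast, mural, neuron and oligodendrocyte progenitor means of its group, as given above. In both cell types Stra6 was lower at P10 than at P5 in PBS pups, by 1.39 in O4+ cells and 1.25 in CD11B+ cells.

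Sez6l2 is a membrane protein of the Sez6 family, best known from neurons. In O4+ cells it was 10.07 to 10.40 (median 10.26) after PBS and 10.71 to 11.06 (median 10.91) after IL1B at P5. P10 values were 10.16 to 11.19 (median 10.78) after PBS and 10.52 to 11.14 (median 10.90) after IL1B, a range that lies within that of PBS. The P10 difference was 0.11 ± 0.17 (adjusted p = 0.759), with a 95% interval of -0.27 to 0.49. The P5 IL1B mean of 10.89 was close to the P10 PBS mean of 10.77. CD11B+ levels ran from 7.19 to 8.73 over all 24 arrays, and the P10 difference there was 0.14 ± 0.11 (adjusted p = 0.489).

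Adm encodes adrenomedullin, a peptide that widens blood vessels and acts through the receptor Calcrl with a Ramp partner. Its O4+ level was 6.87 to 7.35 (median 7.03) after PBS and 7.72 to 7.95 (median 7.80) after IL1B at P5. At P10 it was 6.93 to 7.33 (median 7.12) after PBS and 7.05 to 7.44 (median 7.32) after IL1B, with overlap. The difference at P10 was 0.15 ± 0.08 (adjusted p = 0.302). In CD11B+ cells Adm was 5.59 to 7.18 over the 12 arrays at P5 and 6.41 to 6.94 at P10, where the difference was -0.18 ± 0.09 (adjusted p = 0.298). Adm was the gene with the least contrast between cell types in PBS pups after S1pr2, and O4+ and CD11B+ arrays overlapped at both ages.

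Vgf encodes a precursor of secreted neuropeptides. In O4+ cells it was 7.12 to 7.44 (median 7.31) after PBS and 7.89 to 8.05 (median 7.96) after IL1B at P5, the narrowest IL1B group of the 10 genes (SD 0.07). The P10 range was 6.58 to 7.02 (median 6.65) after PBS and 6.47 to 7.16 (median 6.88) after IL1B. The P10 groups overlapped, and the difference was 0.16 ± 0.11 (adjusted p = 0.446). CD11B+ levels were 5.58 to 7.01 at P5 and 5.80 to 6.61 at P10, with a P10 difference of 0.08 ± 0.12 (adjusted p = 0.727).

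Gfpt2 catalyses the first and rate-limiting step of the hexosamine pathway, which feeds protein glycosylation. In O4+ cells it was 8.24 to 8.60 (median 8.41) after PBS and 9.02 to 9.44 (median 9.10) after IL1B at P5. P10 levels were 8.74 to 8.93 (median 8.83) after PBS and 8.65 to 8.99 (median 8.89) after IL1B, so the IL1B range covered the PBS range. The P10 difference was 0.02 ± 0.06 (adjusted p = 0.857), with a 95% interval of -0.11 to 0.16. The difference at P5, by which the gene was chosen, was 0.75. The PBS level had meanwhile risen by 0.43 from P5 to P10, without overlap. In CD11B+ cells Gfpt2 was dim, between 3.94 and 5.82 over the 24 arrays, and the P10 difference was -0.43 ± 0.27 (adjusted p = 0.405).

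Chst2 is a sulfotransferase of the Golgi that adds sulfate to N-acetylglucosamine in sugar chains. In O4+ cells its brighter probe was at 10.49 to 10.703 (median 10.60) after PBS and 11.12 to 11.54 (median 11.32) after IL1B at P5. By P10 the level was at 11.41 to 11.69 (median 11.55) after PBS and 11.22 to 11.56 (median 11.30) after IL1B. The order of the groups had turned, with PBS above IL1B at P10, and the difference of -0.20 ± 0.07 was not called (adjusted p = 0.0894). The level in PBS pups rose by 0.94 from P5 to P10, and the IL1B level of 11.33 was the same at both ages.

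The dimmer Chst2 probe showed the same turn on a larger scale. It was at 6.10 to 6.65 (median 6.44) after PBS and 7.16 to 7.60 (median 7.36) after IL1B at P5, and at 7.78 to 8.46 (median 8.20) and 7.06 to 7.62 (median 7.34) at P10. At P10 every IL1B array lay below every PBS array, as for 3.33% of all probes, and the probe was called lower, by -0.83 ± 0.12 (adjusted p = 0.00268). The probes lie at chr9:95304932-95304991 and chr9:95301935-95301994 (mm9, minus strand), and only the dimmer one meets the call, so the fall of Chst2 at P10 rests on 1 of 2 probes. The mean of 8 markers of myelinating oligodendrocytes, 14.98 to 15.22 after PBS and 14.33 to 14.76 after IL1B, was lower on the same arrays, with 3 of 8 called lower, and its part in the Chst2 value was not tested.

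In CD11B+ cells the brighter Chst2 probe was at 6.53 to 8.74 at P5 and 7.30 to 8.24 at P10, with a P10 difference of 0.31 ± 0.13 (adjusted p = 0.198). The dimmer probe was well above background on none of the 24 CD11B+ arrays. Its O4+ signal was at least 5.22-fold higher than in CD11B+ cells in P5 PBS pups and at least 18.2-fold higher in P10 PBS pups.

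**Figure D4:**
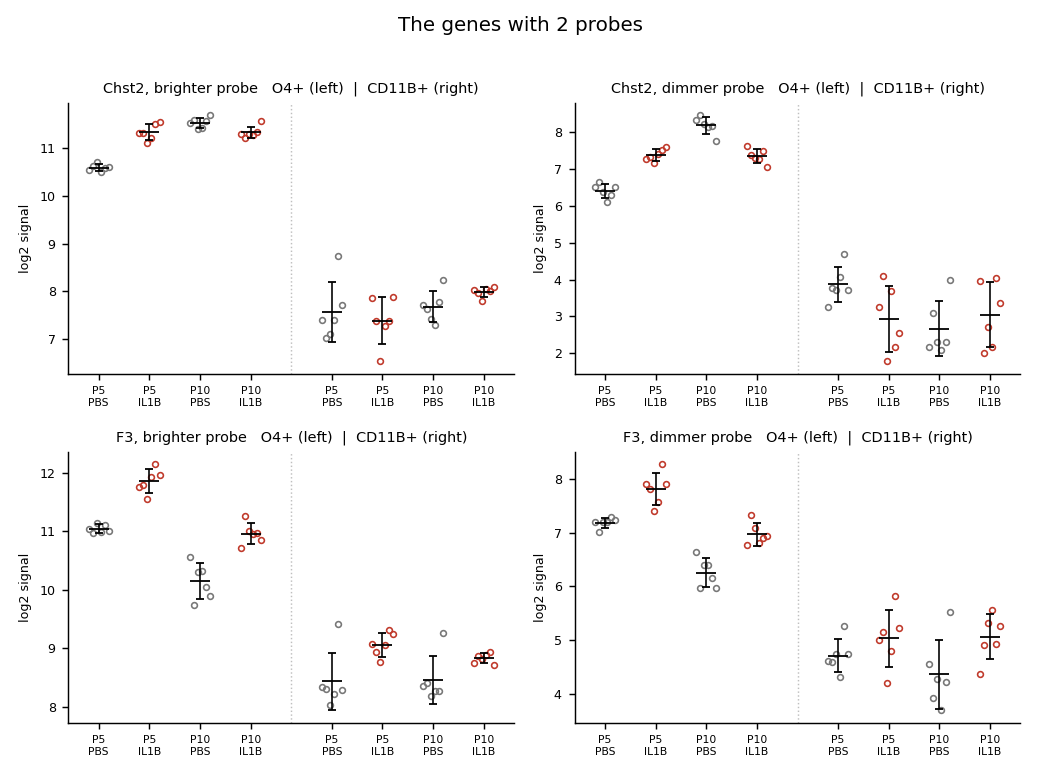
Log2 signal (y axis) of both probes of Chst2 and F3 on every array, with O4+ groups on the left and CD11B+ groups on the right, grey for PBS and red for IL1B, with mean and SD of 6 arrays. Both Chst2 probes are higher with IL1B at P5 and lower at P10 in O4+ cells (means of 8.19 and 7.36 at P10 for the dimmer probe), while both F3 probes are higher at both ages. The dimmer Chst2 probe is not well above background on the CD11B+ arrays.

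Prss23 is a secreted serine protease. In O4+ cells it was 9.66 to 9.89 (median 9.73) after PBS and 10.23 to 10.78 (median 10.57) after IL1B at P5. In P10 pups it was 9.07 to 9.65 (median 9.36) after PBS and 9.38 to 9.66 (median 9.53) after IL1B, with overlap. The P10 difference was 0.18 ± 0.11 (adjusted p = 0.342). In CD11B+ cells at P5 its response was larger than in O4+ cells, with 6.21 to 7.47 (median 6.92) after PBS and 7.53 to 8.64 (median 8.44) after IL1B, a difference of 1.35 against 0.77. The 2 CD11B+ groups at P5 did not overlap, as for 5.87% of all probes, although all their arrays lay below the O4+ PBS arrays. At P10 the CD11B+ levels were 6.13 to 6.88 (median 6.63) and 5.99 to 6.48 (median 6.34), a difference of -0.28 ± 0.13 (adjusted p = 0.216).

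Rasl11a, the small GTPase, is known from work on transcription of ribosomal RNA genes. In O4+ cells it was 8.55 to 8.87 (median 8.72) after PBS and 9.17 to 10.06 (median 9.66) after IL1B at P5. P10 values were 5.94 to 6.81 (median 6.61) after PBS and 7.22 to 7.96 (median 7.68) after IL1B. The groups did not overlap at either age, and the gene was higher on 6 of 6 IL1B arrays at P10. Its P10 difference of 1.14 ± 0.15 (adjusted p = 0.00189), a 2.21-fold change, was the largest of the 10 genes, and it was 1.00 and 1.01 on the 2 slides that hold both groups. The microglial, neutrophil and monocyte, fibroblast, astrocyte and oligodendrocyte progenitor lists also had higher means on the P10 IL1B arrays, as given above. The myelinating list had a lower mean. The part of these lists in the Rasl11a value was not tested.

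Rasl11a also showed the steepest fall with age of the 10 genes, by 2.21 from P5 to P10 in O4+ cells of PBS pups and by 2.01 after IL1B. The ages share no slide, as stated above. At P10 the IL1B level stood between the P5 and P10 levels of PBS cells without overlap with either. In CD11B+ cells Rasl11a was 3.73 to 5.88 at P5 and 3.96 to 5.72 at P10, below all O4+ arrays, and the P10 difference was -0.14 ± 0.29 (adjusted p = 0.808). The probe lies at chr5:147658864-147658923 (mm9, plus strand).

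The levels of the PBS groups thus moved in both directions with age in O4+ cells. From P5 to P10 they were lower without overlap for Rasl11a, Stra6 (by 1.39), F3 (by 0.90), S1pr2 (by 0.61), Vgf (by 0.60) and Prss23 (by 0.41), and higher without overlap for Chst2 and Gfpt2. Sez6l2 (0.52) and Adm (0.08) were higher with overlapping arrays. Of all probes, 11.4% were lower and 13.0% higher in this sense. These values share the P5 PBS arrays with the choice of the genes and carry no test. The ages share no slide or scan date, so age and slide cannot be told apart.

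In CD11B+ cells at P10, none of the 10 genes was called with IL1B in either direction by limma, against 2.01% of all probes. Since levels on these arrays may have entered the choice, this count is not independent of it. Chst2, F3 and Prss23 had an unadjusted p under 0.05 (0.0423, 0.0422 and 0.0488). The differences ran from -0.43 for Gfpt2 to 0.37 for F3, with 5 above and 5 below 0 and a median of -0.03. At P5, where CD11B+ levels entered the choice, the differences ran from -0.37 for Adm to 1.35 for Prss23, and those of Prss23, Stra6 and F3 (0.63) were the ones above 0.5.

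Whether the response at P10 differed between the cell types was tested with the interaction term over the 24 arrays at P10, without a fold threshold. It passed for 3 of the 10 genes, against 7.56% of all probes, and 2 of the 3 were more positive in O4+ cells, against 3.92%. The response in O4+ cells exceeded that in CD11B+ cells by 1.28 ± 0.33 for Rasl11a (adjusted p = 0.0195) and by 0.57 ± 0.15 for S1pr2 (adjusted p = 0.0231). For Chst2 it was lower by the interaction value of -0.51 ± 0.15 (adjusted p = 0.0452). With the slide as a block the same limma test passed for none of them, at 1.402 for Rasl11a (adjusted p = 0.0599), 0.59 for S1pr2 (adjusted p = 0.0896) and -0.23 for Chst2 (adjusted p = 0.465). Rasl11a and S1pr2 passed in all 24 fits that left out an array, and Chst2 in 5 of 24, at adjusted p = 0.00185 to 0.0797. Chst2 did not pass with all 48 arrays in 1 fit (adjusted p = 0.244) or by its dimmer probe (-1.22, adjusted p = 0.128). F3, at 0.44 ± 0.22 (adjusted p = 0.254), and the other 6 genes did not pass, so that a difference between cell types was not shown for them. By the dimmer F3 probe, near background in CD11B+ cells, the limma interaction was 0.01 ± 0.33 (adjusted p = 0.985).

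The neighbours of the 10 genes in their pathways, 94 genes in 10 lists, were read with the brighter probe of each gene. In O4+ cells at P5, 7 of the 94 were called higher and 2 lower, against 3.49% and 1.51% of all probes, with a median difference of -0.10. At P10, 4 were called higher and 3 lower, against 2.61% and 1.51%, with a median of 0.21. No gene was called at both ages. All 7 genes called higher at P5 had a higher mean level in CD11B+ than in O4+ cells of PBS pups at P5, and 1 of the 4 called higher at P10, Aldh1a2, had in PBS pups at P10 (6.09 against 5.92). Of the 2 called lower at P5, Thbd was also higher in CD11B+ cells of P5 PBS pups (9.59 against 9.36), and Ramp2 was not (12.39 against 14.31). Neighbours not called at either age stood on both sides there, such as Sgpl1 (14.42 against 13.28) and Gfpt1 (11.67 against 12.55). The share over all 94 genes was not counted, so these counts are a description and cannot be set against it.

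Among 12 genes of coagulation start and fibrinolysis, the neighbours of F3, 3 rose and 1 fell at P5. Plaur, the urokinase receptor, rose by 2.49 (adjusted p = 1.35e-06). Thbd, or thrombomodulin, which restrains clotting on endothelium, fell by 0.84 (adjusted p = 0.0300). None of the 12 was called at P10. The fall of Thbd was lost with the slide or the scan date as a block (adjusted p = 0.191 and 0.148), and it stayed called in 6 of 12 fits that left out an array. Plau, 1 of the 3 that rose, lost its call in limma with the slide, scan date or replicate block (adjusted p = 0.0613, 0.0596 and 0.110). It did so too with normexp and with the deposited values, and stayed called in 6 of 12 fits that left out an array.

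Of 10 genes of sphingosine-1-phosphate signalling, none was called at P5. At P10, Sphk1, the kinase that makes the ligand of S1pr2, rose by 0.94 (adjusted p = 0.00763), and the receptor S1pr5, which is known from mature oligodendrocytes, fell by 0.87 (adjusted p = 0.00558). Of 15 genes of retinoid uptake and metabolism, Dhrs3, which reduces retinal to retinol, rose at P5 by 0.85 (adjusted p = 0.00317). At P10, Aldh1a2, which makes retinoic acid, was called higher, at 0.68 (adjusted p = 0.0237). It was not called in the limma fit over all 48 arrays (adjusted p = 0.207), with the replicate block (adjusted p = 0.0638) or with the normexp background correction. Its call held in 9 of 12 fits that left out an array.

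Of 9 other genes of the hexosamine pathway, 1 was called, Renbp, which converts N-acetylglucosamine to N-acetylmannosamine and rose at P5 by 1.12 (adjusted p = 0.000592). Of 11 other carbohydrate sulfotransferases, none was called at P5 and 2 were called lower at P10. Chst8 fell by 1.15 (adjusted p = 0.00156), and Chst4 had a difference of -0.96 (adjusted p = 0.0319) but was well above background on 5 PBS and 2 IL1B arrays of 6.

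Of 13 other small Ras-like GTPases, Rrad and Rasd1 rose at P5, by 1.62 (adjusted p = 3.44e-06) and 1.19 (adjusted p = 0.0336), and Rem2 rose at P10 by 0.87 (adjusted p = 0.0229), from a level well above background on 1 of 6 PBS arrays. With the slide as a block Rasd1 and Rem2 lost their calls at differences of 1.11 (adjusted p = 0.228) and 0.88 (adjusted p = 0.0919), and so did Ramp2, described next, and Chst4, at -0.58 (adjusted p = 0.0693) and -0.91 (adjusted p = 0.123). Of 8 adrenomedullin receptors and relatives, 1 was called, Ramp2, the partner of Calcrl, which fell at P5 by 0.71 (adjusted p = 0.00688). None of 9 granins and prohormone processing genes, 2 Sez6 relatives and 5 secreted serine proteases was called at either age.

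Across the 24 O4+ arrays, the genes whose pattern was most like the mean of the 10 genes were Axl, Id2, Batf, Trib1 and Zbtb16, with Pearson's r of 0.982 to 0.975 among 15123 candidate genes. Candidates were genes whose brightest probe was well above background on all IL1B arrays of O4+ cells at P5. The arrays include those at P5 by which the 10 genes were chosen, so a likeness to other genes raised there is partly fixed by the choice. The arrays also share 4 groups and their slides, so the values are a description. For single genes the most alike were Pkdcc for Rasl11a (r = 0.987), Trib1 for S1pr2 (0.974), Zbtb16 for Prss23 (0.977), Rhoq for F3 (0.965) and P2rx5 for Stra6 (0.965). Chst2 was most like B3galt5 (0.921), followed by Plk3 and Ninj1, and the log2 difference of B3galt5 was 0.54 at P5 and -0.28 at P10. Gfpt2 and Sez6l2 had the weakest likeness, to Dennd4a (0.790) and Cradd (0.753), while Vgf was most like 6430527G18Rik (0.957) and Adm most like Serpina3i (0.902).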

How the data were processed

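RNA of 48 sorted cell samples was hybridised to 1-colour Agilent arrays, 1 array a sample, and spot intensities were deposited by the authors as the scanner software (Feature Extraction 10.7.3.1) gave them, with probes annotated on mm9. The deposited value table holds the ratio of each processed intensity to the median of its array. Here log2 of the processed intensity was quantile-normalized over 48 arrays, after 278 spots marked non-uniform were left out, and averaged per probe, since the study's methods state quantile normalization. Groups of 6 were compared with limma (3.58.1, R 4.3.3, data.table version 1.17.8) in fits of 12 arrays, and responses of both cell types in a fit of 24. P-values were adjusted over 55681 probes by Benjamini-Hochberg. A call needed an adjusted p under 0.05 and a ratio of medians over 1.5. No label ties samples to separate litters, so p-values measure the spread between these samples, and the number of arrays limits the precision.

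The 10 genes and all gene lists were chosen with earlier results of these data known. Named genes are the members, the called genes of each pathway list (at most 3 with values; some are counted but not reported here), and those most correlated with members over 24 O4+ arrays. Where a gene had several probes, the brightest was used. On simulated data, the fit of O4+ cells at P10 recovered 188 of 200 changed probes with 3 false calls among 29638 probes, and the interaction 171 of 200 with 8 false calls. The planted changes were 2-fold or larger, on probes well above background on all O4+ PBS arrays at P10, and without slide effects. These counts thus do not cover smaller differences, such as those of most of the 10 genes at P10. Same-numbered PBS and IL1B samples of a cell type did not all deviate together (r over 0.1 for 2 of 6 pairs in O4+ cells at P5 and 1 of 6 at P10), so numbers were not taken as pairs. No label ties the numbers of O4+ and CD11B+ samples to the same brains. At P10, their same-numbered r was over 0.1 for 1 of 6 pairs after PBS and 4 of 6 after IL1B. Alternatives were other scalings and background corrections, filters, the slide or scan date as a block, a replicate block, all arrays in 1 fit, the second probe, and leaving out each array.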

Additional observations from a re-analysis of the deposited data

Results flagged for a closer look

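Among 80 groups of 6 arrays (10 genes in 8 groups), 9 held an array far from the others, where chance gives about 1 in 20. In CD11B+ cells of PBS pups at P5, replicate 5 was high for F3 (9.41, the next array at 8.33) and Sez6l2 (8.73, next 7.95), and it had the highest list means of the group for astrocytes (10.84), meningeal fibroblasts (10.73), choroid plexus (10.00) and mural cells (9.25). It was also highest for neurons (7.60 against 6.29 to 6.47) and for oligodendrocyte progenitors (10.31 against 9.33 to 9.98). In CD11B+ cells of PBS pups at P10, replicate 6 was high for F3 (9.26, next 8.40), with the highest list means for astrocytes (10.08), meningeal fibroblasts (9.15), choroid plexus (8.97), mural cells (8.13) and neutrophils and monocytes (12.37). In CD11B+ cells of IL1B pups at P5, replicate 3 was low for Rasl11a (3.73, next 4.96) and Adm (5.59, next 6.42). Replicate 3 of the CD11B+ IL1B group at P10 was low for Prss23 (5.99, next 6.31). In O4+ cells at P10, Stra6 was low in PBS replicate 1 (5.75, next 6.95), Vgf was high in PBS replicate 4 (7.02, next 6.69), and Chst2 was high in IL1B replicate 6 (11.56, next 11.35). The part of other cell types in these arrays was not tested.

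The response to IL1B at P10 differed between O4+ and CD11B+ cells by limma's interaction term for Rasl11a (1.28), S1pr2 (0.57) and Chst2 (-0.51), and for none of the 3 with the slide as a block.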

How the results depend on the processing

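Rasl11a and F3 were called higher in O4+ cells at P10 under every alternative run for them, at 0.76 to 1.17 and 0.71 to 0.83, and in all 12 fits that left out an array, at 1.03 to 1.23 and 0.73 to 0.90. The second probe added Chst2 as lower, which made 3 genes. No gene was called in CD11B+ cells at P10 under any alternative. The interaction passed for 0 genes with the slide as a block, and for 2 to 3 when an array was left out; with scaling to the 75th percentile Prss23 joined (adjusted p = 0.0492). A block of O4+ and CD11B+ arrays of the same treatment and number, chosen after seeing the data, left the same 3 genes with a passing interaction; each O4+ array at P10 correlated best with the CD11B+ array of its number in 5 of 6 cases after PBS and 6 of 6 after IL1B. With the replicate block the counts of the 10 genes remained 2, 0 and 3, and pathway calls were 8 at P5 and 6 at P10. Pathway calls at P5 were 24 without a fold threshold, 5 with the slide as a block and 7 to 10 when an array was left out. At P10 they were 12 after 75th percentile scaling and 12 from the value table the authors deposited, 28 without a fold threshold, 11 with the scan date as a block, and 4 to 9 when an array was left out, with 4 without PBS replicate 2 and without IL1B replicate 3.

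Among the genes reported, signs turned for differences that were not called. In O4+ cells at P10, Gfpt2 was -0.00041 with normexp and -0.033 with the slide as a block, and Vgf was -0.0010 with the slide as a block. In CD11B+ cells at P10 the slide block gave -0.038 for Chst2, -0.10 for Sez6l2 and -0.027 for Stra6. The interaction was -0.022 for Vgf and 0.16 for Sez6l2 with the slide as a block, and 0.024 for Sez6l2 with the scan date. When an array was left out, ranges that crossed 0 were -0.0022 to 0.067 (Gfpt2) and -0.016 to 0.19 (Sez6l2) in O4+ cells, -0.28 to 0.024 (Rasl11a) and -0.0093 to 0.15 (Vgf) in CD11B+ cells, and -0.16 to 0.049 (Sez6l2) and -0.086 to 0.28 (Stra6) for the interaction. The cause was not tested. Slides hold unequal numbers of both groups, and signals near background, as for the dimmer Chst2 probe in CD11B+ cells, give bounds.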

Other observations

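The 10 genes did not share a single pattern over the 24 O4+ arrays. Of their 45 pairs, 26 had a Pearson's r over 0.5 and 8 were below 0, all 8 of them with Chst2 or Sez6l2. F3 and S1pr2 were the closest pair (0.951), and Rasl11a and F3 had 0.930, whereas Rasl11a and Chst2 had -0.41. Gfpt2 stood with Chst2 (0.740), and these 2 were the genes whose PBS level was higher at P10 than at P5 without overlap. Adm had an r over 0.5 both with Gfpt2 (0.721) and with Prss23 (0.796), so the genes did not part into separate kinds. With the group means taken out, the median r over pairs was 0.15 in place of 0.69, and 4 pairs were over 0.5. These are descriptions of arrays that share groups and slides. The arrays include those at P5 on which all 10 genes were chosen to rise, which partly fixes a positive r.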
